A study of Mus musculus with 13 samples.

Results

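In fully grown mouse oocytes, RNA recovered with an antibody to N4-acetylcytidine (ac4C) was compared gene by gene with RNA recovered with non-specific IgG. Among 4680 genes with at least 50 counts over both pull-downs, of 21898 genes listed, 439 (9.38%) formed the enriched end of the ranking and 218 (4.66%) the depleted end. A gene was placed at the enriched end when the lower 95% bound of its anti-ac4C over anti-IgG ratio of CPM (counts scaled to the same library total) lay above 2, and at the depleted end when the upper bound lay below 0.5. The bounds were exact binomial (Clopper-Pearson) limits on how the counts of a gene split between the pull-downs. They cover counting error only, because each pull-down was sequenced as 1 library, so neither a test nor a spread between replicates can be given for any ratio. Long messages, and those for ubiquitin-specific proteases and centrosome proteins, had high median ratios. Short messages, above all those for ribosomal proteins and respiratory chain subunits, had low median ratios. Among the most abundant oocyte transcripts, Gdf9, Tle6 and Zar1 stood at the depleted end when libraries were scaled by counts on genes. They did not when fragments not assigned to a counted gene also entered the totals.

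Both libraries came from germinal vesicle (GV) stage oocytes of wild-type (WT) C57BL/6J mice, labelled as oocytes from ovary, and differed in the antibody, anti-ac4C or anti-IgG. Neither pull-down has a replicate, and neither an unselected input library nor a pull-down from Nat10-deficient oocytes was analysed here. According to the methods of the study, oocytes were pooled, polyadenylated RNA was captured and broken into short fragments, and the fragments bound by either antibody on protein A beads were converted to cDNA and amplified. The other 11 libraries of the series are ribosome footprint (Ribo-seq) libraries from WT oocytes and from oocytes in which floxed Nat10 was deleted with a Zp3-driven Cre (ZcKO), at the GV and metaphase II (MII) stages, and they serve below as a separate readout of the same genes.

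ac4C is a cytidine that carries an acetyl group on its base. The acetyltransferase NAT10 places it in transfer RNA, with the help of the adaptor THUMPD1, and in the small ribosomal subunit RNA. Several groups have also reported it in messenger RNA, where it has been linked to stability and translation. The study calls its presence in mammalian messenger RNA controversial. It cites a chemical method of nucleotide resolution that found sites there only when NAT10 was overexpressed. From its own anti-ac4C pull-down, however, the study concludes that many maternal transcripts of the oocyte carry ac4C. The GV oocyte is arrested in prophase of meiosis and largely silent in transcription, so that its stored maternal messages, their tails and their turnover by the CCR4-NOT deadenylase determine which proteins are made during maturation.

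The sequence context most often described for ac4C is a run of triplets that each begin with C. To show what such runs looked like at either end, the longest run inside 1 coding exon is printed for the 4 leading genes of each end, as 30 bases read 5′ to 3′ on the coding strand of GRCm38 from GENCODE M21 transcripts, with the C of each triplet of the run in capitals. The first 4 belong to the enriched end.
Edc4 (exon 16 of 29, chr8:105888435-105888464, plus strand): tagCagCagCagCagCagCagCagCtctct
Sec23ip (exon 1 of 19, chr7:128745139-128745168, plus strand): caggCcgCcgCctCccCggCttCcctgctc
Srrm2 (exon 12 of 15, chr17:23822520-23822549, plus strand): CctCctCctCctCctCttCctCttCttCct
Tiam2 (exon 3 of 27, chr17:3414807-3414836, plus strand): agaCccCagCctCccCagCagCttCccacc
The next 4 belong to the depleted end.
Igsf6 (exon 1 of 6, chr7:121074458-121074487, minus strand): cgcaggagcCgcCtcCggCcagagatcagc
Zpr1 (exon 1 of 14, chr9:46273249-46273278, plus strand): CctCgcCcgCtgCggCtgCgtCacCagCca
Ndufb4 (exon 1 of 3, chr16:37654187-37654216, minus strand): gcttcagtaCaaCgaCccCaaacgcgtgtc
Oog1 (exon 2 of 3, chr12:87605994-87606023, plus strand): aatgctattCccCacCcaCcctccagaacc

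The runs spanned 8, 7, 39 and 8 triplets in Edc4, Sec23ip, Srrm2 and Tiam2, and 4, 11, 4 and 4 triplets in Igsf6, Zpr1, Ndufb4 and Oog1. The windows of Srrm2 and Zpr1 show 10 triplets of their runs. Across all genes, however, the longest run in a transcript (any of the 3 frames, coding strand) had a median of 7 triplets at the enriched end, at the depleted end and over all 4677 measured genes with an annotated coding transcript. A run of 5 or more triplets (CNN repeated, N being any base) occurred in 95.4% of transcripts at the enriched end, 86.6% at the depleted end and 94.4% over all measured genes, and the number of its overlapping matches per 1000 bases had medians of 2.50, 2.85 and 2.52. By density these runs were therefore no more frequent at the enriched end than among all genes, and across genes their density and the ratio had a Spearman correlation of -0.02 (4677 genes, as a description, since genes share both libraries).

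Counts on genes came to 970997 in the anti-ac4C pull-down against 116232 with IgG, a depth ratio of 8.35. A count of 0 in the anti-IgG library allows up to 3 counts, or 25.8 CPM. Because of the unequal depth, a gene with no anti-IgG count needed 64 anti-ac4C counts to reach the enriched end, and 670 of the 4680 genes (14.3%) had too few counts to reach it whatever their split. At 50 counts, 16 or more in the anti-IgG library placed a gene at the depleted end, where 5.35 are expected at a ratio of 1. Of the 439 genes at the enriched end, 241 (54.9%) had no anti-IgG count and 116 had 1 to 3, so their ratios have no upper bound or a very high one. With the genes at 0 set to 3 anti-IgG counts, the median ratio at the enriched end was 4.39, whereas the depleted end had a median of 0.243 and all measured genes 1.27. The scatter of the pull-downs against each other shows both ends, with the enriched genes stacked at the lowest anti-IgG counts.

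**Figure D1:**
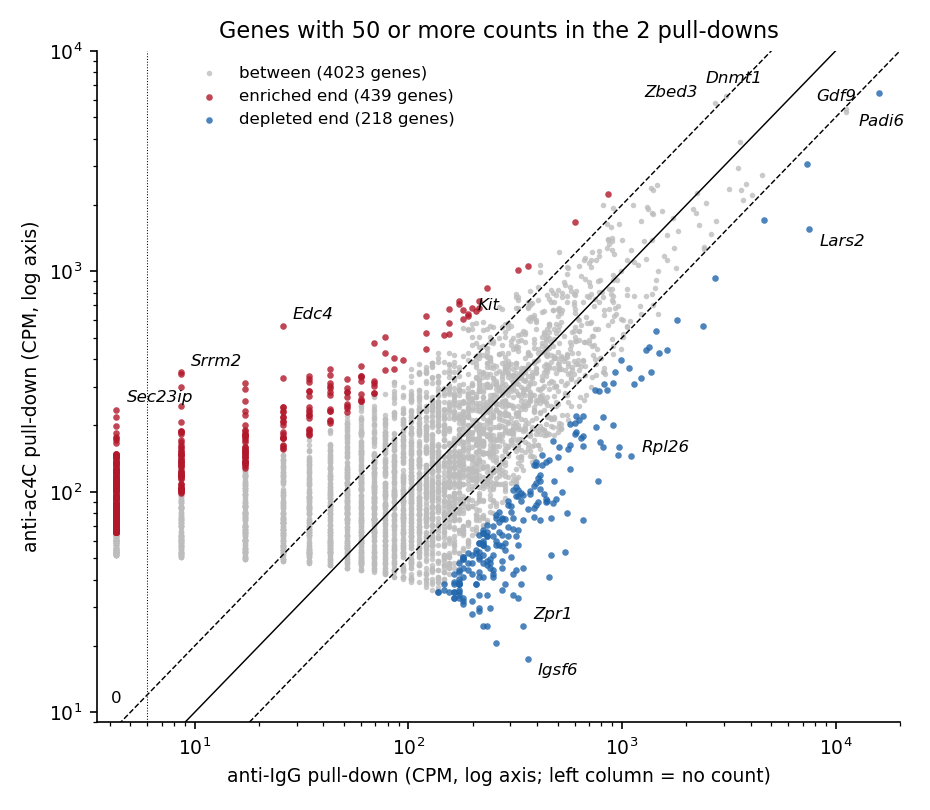
Anti-IgG CPM (horizontal, log axis) and anti-ac4C CPM (vertical, log axis) of the 4680 genes with 50 or more counts, 1 point per gene and 1 library per axis. Genes without an anti-IgG count are drawn in the column left of the dotted line, the solid line marks a ratio of 1 and the dashed lines ratios of 2 and 0.5. The 439 genes of the enriched end (red) crowd the low anti-IgG columns, and the 218 genes of the depleted end (blue) lie under the lower dashed line.

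The level of every ratio depends on how the libraries are set against each other. Fragments assigned to none of the counted genes, which are labelled protein-coding, made up 17.1% of those summarised for anti-ac4C and 46.7% for anti-IgG. They need not lie outside all annotated genes. Scaling by all of these fragments rather than by counts on genes multiplies every ratio by 1.55, and the trimmed mean of M values (TMM) multiplies it by 1.11. With all fragments, 1030 genes would stand at the enriched end and 59 at the depleted end. If each molecule had been read 2 times through amplification, 77 and 131 genes would remain. The order of genes does not change, so the lists below are also read against the median of all measured genes.

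The genes with the highest lower bounds had varied roles. Edc4, the scaffold of the mRNA decapping complex, led the ranking with 550 anti-ac4C and 3 anti-IgG counts, a ratio of 21.9 (95% bounds 7.47 to 107). Srrm2, a serine- and arginine-rich protein of nuclear speckles, had 338 counts against 1 and a lower bound of 7.21, and Tiam2, an exchange factor for the GTPase Rac, 332 against 1 and a lower bound of 7.08. Sec23ip, a partner of the COPII coat, had 228 counts against none and a lower bound of 7.34. The same pattern of many counts against none held for the protocadherin Fat1 (213), the 2-oxoglutarate dehydrogenase subunit Ogdh (194), the P-TEFb cyclin Ccnt2 (180), Tpra1 (172), the zinc finger gene Tshz1 (170), the histone chaperone subunit Ssrp1 (167) and the nucleolar factor Cebpz (162). The netrin receptor gene Unc5c had 290 counts against 1 and Tbc1d8, of a family of Rab GTPase-activating proteins, 239 against 1. Zfp957, a C2H2 zinc finger gene, had 301 against 2, and Tdrd5, a Tudor domain protein of the germline, 284 against 2. Among these 15 genes, the anti-IgG count was between 0 and 3, so each ratio rests on a near absence from the small library.

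Ratios at the enriched end were smaller where the anti-IgG library was better counted. Of the 439 genes, 22 had 500 or more counts in total, and they are named here after their values were seen. Trim61, a tripartite motif gene, had 2172 counts against 100 and a ratio of 2.60 (bounds 2.13 to 3.21), the lowest ratio at this end. Lamb1, a laminin subunit of basement membranes, had 1628 against 70 and a ratio of 2.78 (2.19 to 3.59). Atxn2l, a relative of the RNA-binding protein ataxin-2, had 1027 against 42 and a ratio of 2.93 (2.15 to 4.09). Paip2b, which binds and inhibits poly(A)-binding protein, had 711 against 20 and a ratio of 4.26 (2.73 to 7.01), and Pacsin2, a membrane-bending protein of endocytosis, 608 against 14 and 5.20 (3.07 to 9.57). Kit, the receptor through which the oocyte receives Kit ligand from granulosa cells, had 608 against 22 and a ratio of 3.31 (2.16 to 5.32).

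At the boundary of the enriched end, Ell (205 against 43.0 CPM, 5 anti-IgG counts) and Ndufa10 (96 against 1 counts) stood just inside with lower bounds of 2.008 and 2.014. Bmp15, an oocyte-secreted growth factor with 1950 against 95 counts and a ratio of 2.46, and Tlk2 (123 against 2) stood just outside with lower bounds of 1.999 and 1.995. Bmp15 and Ndufa10 show how the rule treats depth, since a ratio of 11.5 resting on 1 anti-IgG count and one of 2.46 resting on 95 gave nearly the same lower bound.

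The depleted end was led by genes with more counts in the anti-IgG library than depth would give. Igsf6, an immunoglobulin superfamily gene, had 17 anti-ac4C and 42 anti-IgG counts, a ratio of 0.048 (bounds 0.026 to 0.087), the lowest of all measured genes. Zpr1, a zinc finger protein, had 24 against 40 (ratio 0.072), and Gpatch3 20 against 30 (ratio 0.080). Oog1, an oocyte-specific leucine-rich repeat gene, had 52 against 63 (ratio 0.099) and Gng3, a G protein gamma subunit, 109 against 90 (ratio 0.145). The splicing-related gene Clasrp (37 against 39) and the corepressor gene Cbfa2t3 (24 against 26) followed. Cyp11a1, the side-chain cleavage enzyme of steroid synthesis and a granulosa cell marker, had 33 against 36 and a ratio of 0.110 (0.066 to 0.181). The other 7 of the 15 leading genes were ribosomal protein or respiratory chain genes. In contrast to the leading enriched genes, all 15 had between 26 and 128 counts in the smaller library.

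Among the 218 genes of the depleted end, 14 had 500 or more counts, again named after their values were seen. Gdf9, the oocyte-secreted growth factor that drives granulosa cell development, was the most counted gene in both libraries, with 6266 against 1845 counts, 6453 against 15873 CPM and a ratio of 0.407 (bounds 0.386 to 0.428). Tle6, of the subcortical maternal complex, had 2977 against 851 and a ratio of 0.419 (0.388 to 0.452), and Zar1, a regulator of maternal mRNA storage, 1652 against 534 and 0.370 (0.336 to 0.409). With scaling by all fragments these ratios were 0.631, 0.650 and 0.575 and none of the 3 genes stood at the depleted end, and Tle6 also left it under TMM, with a ratio of 0.467. Lars2, the mitochondrial leucyl-tRNA synthetase, had 1507 against 874 and a ratio of 0.206 (0.190 to 0.225). Astl, the egg cortical granule protease that cleaves ZP2, had 909 against 318 (ratio 0.342), and the polyubiquitin gene Ubb 548 against 279 (ratio 0.235). Just inside the bound stood Zmynd19 (386 against 115) and the chaperone gene Hspa8 (281 against 87), with upper bounds of 0.499 and 0.498. Just outside stood Sepsecs (47 against 20) and Ing3 (44 against 19), with upper bounds of 0.501 and 0.503. How reads that match several genes were assigned is not given in the sources used here, so values of ribosomal protein, ubiquitin, Eef1a1 and Gapdh messages, which have many near-identical copies in the genome, are uncertain.

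Length separated the ends. The summed exon length had a median of 5661 bases at the enriched end (quartiles 3638 and 8388), 3243 bases at the depleted end (1941 to 4938) and 5012 bases over the 4679 measured genes with an annotation. The share of genes at the enriched end was 3.57% of 56 genes under 1000 bases, 5.34% of 393 from 1000 to under 2000 bases, 7.93% of 1273 from 2000 to under 4000, 9.87% of 1874 from 4000 to under 8000 and 12% of 1083 with 8000 bases or more. The share at the depleted end went the other way above the shortest bin, with 10.7%, 13.5%, 5.73%, 3.52% and 1.85% in the same bins. The median ratio climbed from 0.620 in the shortest bin through 0.858, 1.15 and 1.33 to 1.48 in the longest. Longer messages therefore had higher ratios in each successive bin, although across single genes the Spearman correlation of ratio and exon length was 0.15 (4679 genes).

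**Figure D2:**
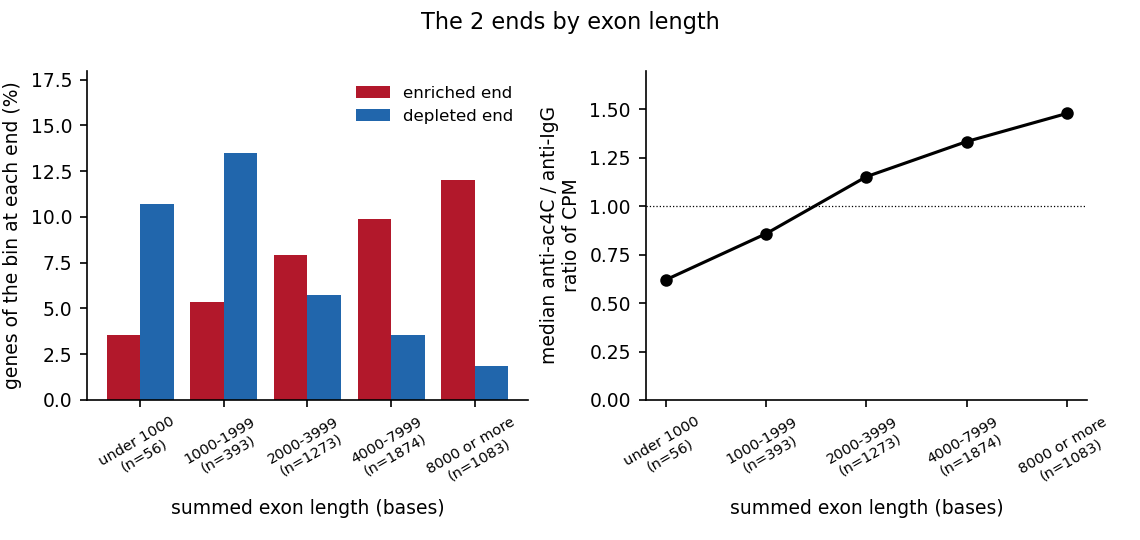
Left, the percent of genes in each bin of summed exon length that lie at the enriched end (red bars) and the depleted end (blue bars). Right, the median anti-ac4C over anti-IgG ratio of CPM per bin, with the dotted line at 1 and the number of genes under each bin. The enriched share rises from 3.57% to 12%, the depleted share falls from 13.5% in the second bin to 1.85%, and the median ratio rises from 0.620 to 1.48.

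Coding sequences and 3′ untranslated regions differed more between the ends than 5′ untranslated regions did. In the longest protein-coding transcript of each gene, the coding sequence had a median of 1980 bases at the enriched end, 951 at the depleted end and 1539 over all measured genes. The 3′ untranslated region had medians of 1235, 532 and 1171 bases, and the 5′ untranslated region 197, 167 and 193 bases. Enriched genes had a median of 13 exons in that transcript, depleted genes 7 and all measured genes 11. GC content was 49.5% at the enriched end, 53.2% at the depleted end and 49.8% over all, and C at the third codon position 27.4%, 30.7% and 28.4%. In length and composition alike, the enriched end lay closer to all measured genes than the depleted end did.

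The length difference was seen at every depth of counting. Among genes with 50 to under 100 counts the median exon length was 5379 bases at the enriched end and 3182 at the depleted end, among those with 100 to under 200 counts 5897 and 3225, among those with 200 to under 500 counts 5801 and 3589, and among those with 500 or more 5441 and 3177. Leaving out the 120 measured genes for ribosomal proteins of cytosol and mitochondria and for nuclear respiratory chain subunits, which are short, gave medians of 5707 and 3456 bases. Those 120 genes had 35 members (29.2%) at the depleted end, against 183 of 4560 (4.01%) among the other genes. In the bin from 1000 to under 2000 bases, 18 of 45 of them (40.0%) and 35 of 348 other genes (10.1%) were at the depleted end. Exons that overlap an exon of another gene on either strand, whose reads can be lost or misassigned, were annotated for 36.9% of enriched, 39.4% of depleted and 36% of all measured genes.

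Cytosolic ribosomal protein messages took a larger share at the depleted end than genes in general. Of 79 cytosolic ribosomal protein genes, 46 were measured, and 17 of these (36.96%, against 4.66% of all measured genes) were at the depleted end and 2 at the enriched end, with a median ratio of 0.605, or 0.477 of the median of all genes. Rps12 (50 against 54 counts, ratio 0.111), Rpl11 (72 against 76, ratio 0.113) and Rpl26 (141 against 128, ratio 0.132) were the lowest. The enriched pair (4.35%, against 9.38% of all measured genes) consisted of Rps9 (91 against 0) and Rplp2 (75 against 0). Subunits of 1 ribosome thus ranged from a ratio of 0.111 to a lower bound of 2.89. Of 78 mitochondrial ribosomal protein genes, 28 were measured, with 4 at each end (14.3%) and a median of 0.710. Among all measured genes 9.38% were enriched and 4.66% depleted. Mrpl51 (40 against 26), Mrps5 (46 against 26) and Mrps16 (34 against 16) were the lowest depleted members of the mitochondrial list. Mrpl9 (108 against 0), Mrps18c (82 against 0) and Mrpl17 (78 against 0) were its best counted enriched ones. Translation factors had a median of 1.22 over 50 measured genes, against 0.605 for cytosolic ribosomal proteins. They had 5 enriched (10%, against 9.38% of all measured genes) and 4 depleted members (8%, against 4.66%). Eif3c, a subunit of the initiation factor eIF3, had 316 against 4 counts (ratio 9.46, lower bound 3.66), whereas Eif4ebp2, which holds back the cap-binding factor eIF4E, and Eef1g, of the elongation factor eEF1 complex, had 43 against 29 (ratio 0.177) and 64 against 31 (ratio 0.247).

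Nuclear genes of oxidative phosphorylation had the lowest median of the lists, 0.445 over 46 measured of 84. That is 0.351 of the median of all genes. Of the 46, 14 (30.4%, against 4.66% of all measured genes) were at the depleted end. At the enriched end were 2 (4.35%, against 9.38%). Ndufb4 (40 against 53, ratio 0.090) and Ndufa7 (32 against 38, ratio 0.101), of complex I, and Cox7c (24 against 27, ratio 0.106), of complex IV, were the lowest. Ndufa10, also of complex I, and Sdhc, of complex II (77 against 0), were enriched. The 6 measured genes of the mitochondrial genome behaved otherwise, with a median of 1.25 and none at either end. Their ratios ran from 0.640 for mt-Nd2 (246 against 46) to 2.09 for mt-Co1 (662 against 38). With scaling by all fragments the medians of the ribosomal protein and respiratory chain lists were 0.939 and 0.691 and 9 and 8 of their genes stayed at the depleted end, whereas that of mitochondrial ribosomal proteins was 1.10 and thus turned from below to above 1.

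**Figure D3:**
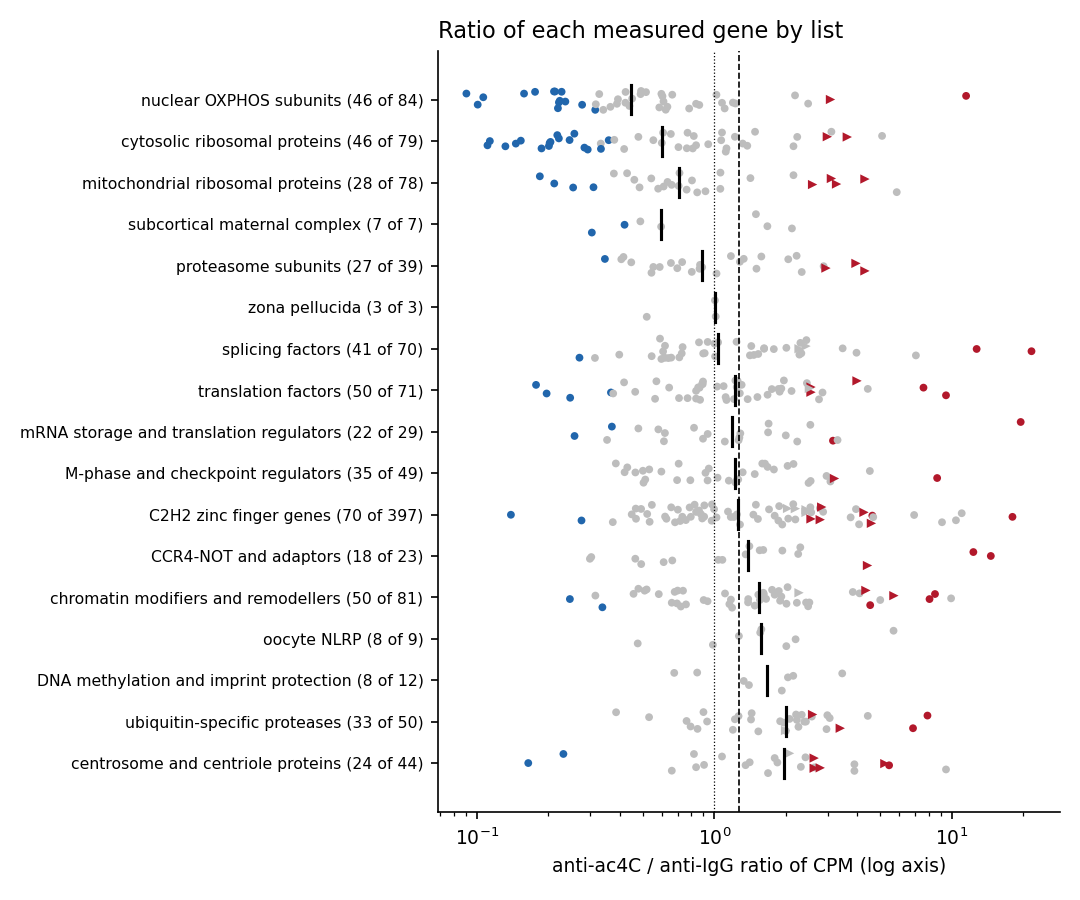
Anti-ac4C over anti-IgG ratio of CPM (log axis) of each measured gene in 17 lists, with the number measured of those listed. Red points are at the enriched end, blue points at the depleted end and grey points between; triangles are genes without an anti-IgG count, drawn at the ratio that 3 counts would give. Black bars mark the list medians, the dashed line the median of all measured genes (1.27) and the dotted line a ratio of 1; respiratory chain and ribosomal protein genes lie mostly to the left, ubiquitin-specific proteases and centrosome genes mostly to the right.

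The highest list medians belonged to ubiquitin-specific proteases and centrosome and centriole proteins, with median exon lengths of 7689 and 7228 bases. The lists were not ordered by length, since chromatin modifiers were longer (9212 bases) with a lower median of 1.54, and kinesins, dynein and dynactin (6733 bases) had 1.07. Of 33 measured ubiquitin-specific proteases, which remove ubiquitin from proteins, 4 were at the enriched end (12.1%, near the 9.38% of all measured genes) and none at the depleted end, with 26 ratios above 1 and a median of 2.001 when genes without an anti-IgG count are set to 3. Usp9x had 459 against 8 counts (ratio 6.87, bounds 3.46 to 16), Usp8 132 against 2, Usp11 85 against 0 and Usp14 65 against 0. Of 24 measured centrosome and centriole genes, 5 were enriched (20.8%, against 9.38% of all measured genes) and 2 depleted (8.33%, against 4.66%). Both shares were above those of all measured genes, and the list had a median of 1.96. Akap9, a scaffold of kinase anchoring at the centrosome, had 131 against 0, and Cdk5rap2, which recruits the gamma-tubulin ring, 182 against 4 (ratio 5.45). Cep295 (44 against 32, ratio 0.165) and Cep41 (58 against 30, ratio 0.231) were the depleted members. Chromatin modifiers and remodellers had a median of 1.54 over 50 measured genes. The 5 enriched (10%) and 2 depleted (4%) were near the shares of all measured genes. Smarcb1, a core subunit of SWI/SNF (143 against 0), Kdm6a, a histone H3 lysine 27 demethylase (109 against 0), and Kat7, a histone acetyltransferase (142 against 2), were among the enriched, and Smarcd2 (206 against 73, ratio 0.338) and Setd1a (35 against 17, ratio 0.246) were the depleted. With all counts divided by 2, each of these 3 lists kept 1 enriched gene.

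Most of the remaining lists had medians near that of all measured genes, of which 9.38% were enriched and 4.66% depleted. The median ratio was 1.26 over 70 measured C2H2 zinc finger genes, with 7 enriched (10%) and 2 depleted (2.86%). It was 1.27 over 36 chaperone genes, with 4 (11.1%) and 2 (5.56%). Over 58 solute carriers it was 1.34, with 2 and 2 (3.45% each). It was 1.23 over 35 M-phase and checkpoint genes. There the anaphase activator Cdc20 (80 against 0) and the checkpoint protein Bub3 (145 against 2) were enriched (5.71%) and none was depleted. Lower medians were found for 41 splicing factors (1.04), although the U5 scaffold Prpf8 (319 against 3, lower bound 4.32) and Prpf3 (181 against 1, lower bound 3.84) were enriched and Prpf18 (61 against 27, ratio 0.270) was depleted. They were also found for 40 F-box genes (1.03), 22 kinesin, dynein and dynactin genes (1.07) and 27 proteasome subunits (0.889). The F-box list had 4 enriched (10%) and 3 depleted members (7.5%). Among them were the ubiquitin ligase adaptor Fbxo28 (306 against 4, ratio 9.16) and the oocyte-expressed Fbxw28 (413 against 173, ratio 0.286). The enriched member of the motor list was Dctn1 (111 against 0). The proteasome list had Psma4 (108 against 0), Psmd14 (99 against 0) and Psma1 (74 against 0) at the enriched end and Psmb7 (133 against 46, ratio 0.346) at the depleted end. Only 6 of 82 histone genes were measured, with a median of 0.714. Of these, H1fx (96 against 39) and Hist1h2bc (46 against 20) were depleted (33.3%). Under TMM 1 histone gene stayed depleted, and none did with scaling by all fragments or with counts divided by 2. The histone median was 1.11 with scaling by all fragments.

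Among the most abundant maternal transcripts, counting error was small and ratios differed widely. Dnmt1, the maintenance DNA methyltransferase, had 6072 against 356 counts and a ratio of 2.04 (bounds 1.83 to 2.28), and Zbed3, of the subcortical maternal complex, 5639 against 318 and 2.12 (1.90 to 2.38). Both were high but outside the enriched end. Padi6, of the same complex, had 5268 against 1292 and a ratio of 0.488 (0.459 to 0.519), and Nlrp14 5135 against 1292 and 0.476 (0.448 to 0.506), just outside the depleted end. The chromatin reader gene Spin1 lay near 1, with 3760 against 415 counts and a ratio of 1.08 (0.980 to 1.20). The oocyte linker histone H1foo (2641 against 525, ratio 0.602), the nucleoplasmin Npm2 (2050 against 426, ratio 0.576), Ldhb (2149 against 470, ratio 0.547), Bpgm (2416 against 442, ratio 0.654) and Rdx (2842 against 405, ratio 0.840) lay below 1. The subcortical maternal complex had 2 of its 7 genes at the depleted end (28.6%, against 4.66% of all measured genes). Its ratios spanned Khdc3 at 0.305 and Zbed3 at 2.12. Under TMM 1 gene of this complex was depleted and 1 enriched. With scaling by all fragments none was depleted and 2 were enriched, whereas 2 stayed depleted with counts divided by 2. Of the zona pellucida genes, Zp2 and Zp3 had ratios of 1.01 and 1.01 and Zp1 had 0.519 (0.456 to 0.593). With scaling by all fragments, the ratios of Bpgm and Rdx rose above 1, to 1.02 and 1.30.

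The CCR4-NOT deadenylase and its adaptors had 3 members at the enriched end and none at the depleted end among 18 measured of 23 (16.7% against 9.38%, and 0 against 4.66%, of all measured genes), with a median of 1.38. The enriched calls rest on 0 or 1 anti-IgG counts, and none was left with all counts divided by 2. The enriched genes were Cnot4, the ubiquitin ligase of the complex (110 against 0), Cnot9 (122 against 1, ratio 14.6, bounds 2.57 to 581) and Cnot10 (103 against 1, ratio 12.3, bounds 2.16 to 492). The scaffold Cnot1 had 250 against 13 and a ratio of 2.30 (1.32 to 4.38). The catalytic subunits differed among themselves, with ratios of 1.55 for Cnot6l, 1.08 for Cnot7, 0.612 for Cnot6 and 0.465 for Cnot8, and the meiotic adaptor Btg4 had 0.665, which rose to 1.03 with scaling by all fragments. Their bounds overlapped in part, with 1.08 to 2.30 for Cnot6l and 0.270 to 0.845 for Cnot8 the best separated of the catalytic subunits. Of 22 measured regulators of mRNA storage and translation, Igf2bp2 (660 against 25, ratio 3.16) and the polyadenylation scaffold Sympk (163 against 1) were enriched (9.09%). Zar1 and the helicase gene Ddx6 (56 against 26, ratio 0.258) were depleted (also 9.09%).

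The study used acRIP-PCR, that is, PCR on RNA recovered by the ac4C antibody, on genes chosen from a human cell line as carrying ac4C (among them Bst2 and Nomo1) and on genes chosen as lacking it (Eef1a1 and Gapdh). Their primers are shown because they mark the fragments on which that assay reads, whereas the counts here cover whole genes. The amplicons were placed on GENCODE M21 transcripts, with the genomic span on GRCm38 including introns, and primers are printed 5′ to 3′ with the forward primer first.
Bst2 (130 bases, coding, exons 1 to 3, chr8:71535801-71537156, minus strand): cacaggcaaactcctgcaac and tcctggttcagcttcgtgac
Nomo1 (118 bases, coding, exons 12 to 13, chr7:46054657-46056692, plus strand): caggggcctacaaagtccag and aaggccacatccatcacagg
Eef1a1 (131 bases, 5′ UTR into coding, exons 1 to 2, chr9:78480596-78481676, minus strand): acgttctttttcgcaacggg and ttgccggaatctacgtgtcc
Gapdh (202 bases, coding into 3′ UTR, exon 7, chr6:125161854-125162055, minus strand): gcctacatggcctccaagg and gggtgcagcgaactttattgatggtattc

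Neither Bst2 nor Nomo1 reached the enriched end. Nomo1, of an endoplasmic reticulum membrane complex, had 120 against 31 counts, 124 against 267 CPM and a ratio of 0.463 (bounds 0.310 to 0.712). Bst2, the antiviral tetherin, had 12 against 5 counts, too few to be ranked (0.094 to 1.04). Of the genes chosen as negative, the elongation factor gene Eef1a1 had 374 against 37 counts and a ratio of 1.21 (0.862 to 1.75), and the glycolytic enzyme gene Gapdh had 14 against 7, also too few (0.090 to 0.701). Of these genes, Eef1a1, chosen as negative, had the highest ratio, and its bounds did not overlap those of Nomo1.

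**Figure D4:**
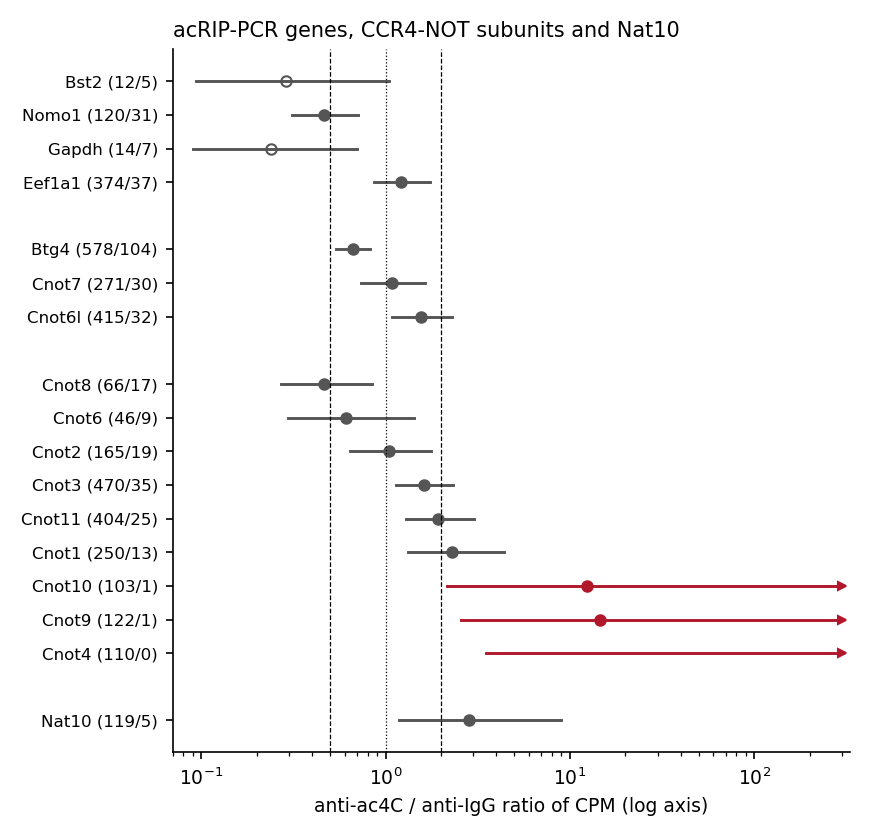
Ratio of anti-ac4C to anti-IgG CPM (log axis) with exact 95% binomial bounds for 4 control genes of the acRIP-PCR, its 3 target genes, the other CCR4-NOT subunits and Nat10, with anti-ac4C and anti-IgG counts after each name. Open points had under 50 counts, arrows mark bounds beyond the axis, and dashed lines mark 0.5 and 2. Cnot4, Cnot9 and Cnot10 (red) lie at the enriched end, and Eef1a1 (1.21) lies above Nomo1 (0.463).

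Nat10, the gene of the ac4C writer itself, had 119 against 5 counts and a ratio of 2.85 (bounds 1.19 to 8.93), short of the enriched end, and its adaptor gene Thumpd1 had 196 against 16 and 1.47 (0.881 to 2.62). Other enzymes and readers of RNA modification had a median of 1.03 over 14 measured genes including Nat10 and Thumpd1. None was enriched, and the m6A methyltransferase Mettl3 (63 against 26, ratio 0.290) and the pseudouridine synthase Dkc1 (215 against 71, ratio 0.362) were depleted, 14.3% against 4.66% of all measured genes. Neither stayed at the depleted end under TMM, with scaling by all fragments or with counts divided by 2. Writers, readers and erasers of DNA methylation had a higher median of 1.66 over 8 measured genes, none at either end. Dnmt3l, the cofactor of de novo methylation (231 against 8, ratio 3.46), and Zfp57, which protects imprints (1886 against 105, ratio 2.15), were high, and Dppa3, a maternal factor of the zygote (606 against 107, ratio 0.678), was the lowest and rose to 1.05 with scaling by all fragments.

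Oocyte markers were counted in both libraries, at unequal shares. All 14 oocyte markers had counts, and together they took 2.42% of the anti-ac4C and 3.64% of the anti-IgG counts. They spanned Gdf9 at 0.407 and Kit at 3.31, with Mos at 0.465 and Nobox at 0.549. Of 15 granulosa or cumulus cell markers, 12 had counts, and Foxl2, Nppc and Pappa had none. That list took 0.0693% and 0.106% of counts, and its depleted member was Cyp11a1. Of 8 stromal, muscle and blood markers, Col1a1, Col1a2, Hbb-bs and Tagln had counts and Dcn, Acta2, Hba-a1 and Ptprc had none, with 11 in the anti-ac4C and 12 in the anti-IgG library, or 0.00113% and 0.0103%. Without Cyp11a1 the granulosa list held 640 against 87 counts, and the ratio of the sums went from 0.655 to 0.881, with Inhba at 1.35 and Amh at 24 against 0 counts. Oocyte and granulosa markers thus both took larger shares of the counts on genes in the anti-IgG library. Neither difference kept its direction with scaling by all fragments. The median ratios of the measured oocyte and granulosa markers were then 1.05 and 1.35, against 0.678 and 0.868 with counts on genes. The part of either list in the depleted end was not tested. In pooled cells, fewer cells of a type and less RNA per cell cannot be told apart.

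Ribosome footprints offered a readout of the same genes that the ranking had not used. The shares of the pull-downs themselves were fixed by the choice of genes and are given as a scale. The enriched end took 7.67% of anti-ac4C and 1.002% of anti-IgG counts, and the depleted end 3.57% and 12.5%. In the footprints of WT GV oocytes the enriched end took 3.38%, 3.71% and 3.95% of counts on genes (mean 3.68% ± 0.29, SD, n = 3), and the depleted end 2.73%, 3.20% and 3.24% (mean 3.06% ± 0.28, SD, n = 3). The measured genes held 89.5% of anti-ac4C, 88.6% of anti-IgG and 62.3% ± 5.1 (SD, n = 3) of WT GV footprint counts. As shares of the counts on measured genes, the ends took 8.56% and 3.98% in the anti-ac4C library, 1.13% and 14.1% in the anti-IgG library, and 5.91% ± 0.046 and 4.90% ± 0.12 (SD, n = 3) in WT GV footprints.

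In the other footprint groups the libraries varied more. ZcKO GV oocytes had 4.31%, 3.89% and 3.16% on the enriched end and 1.58%, 1.59% and 3.18% on the depleted end, with 42360, 51709 and 277124 counts on genes in that order. The shallower libraries had the lower depleted-end shares. The WT MII libraries had 5.03% and 2.85% on the enriched end and 1.48% and 5.34% on the depleted end, but the second held only 4815 counts. The ZcKO MII libraries had 6.25%, 5.67% and 5.46% on the enriched end and 1.57%, 1.60% and 1.46% on the depleted end. At MII, the ZcKO libraries and the deeper WT library had higher enriched-end shares and lower depleted-end shares than each WT GV library, also as shares of the counts on measured genes. With 1 usable WT MII library, the effect of Nat10 deletion on these shares was not tested.

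**Figure D5:**
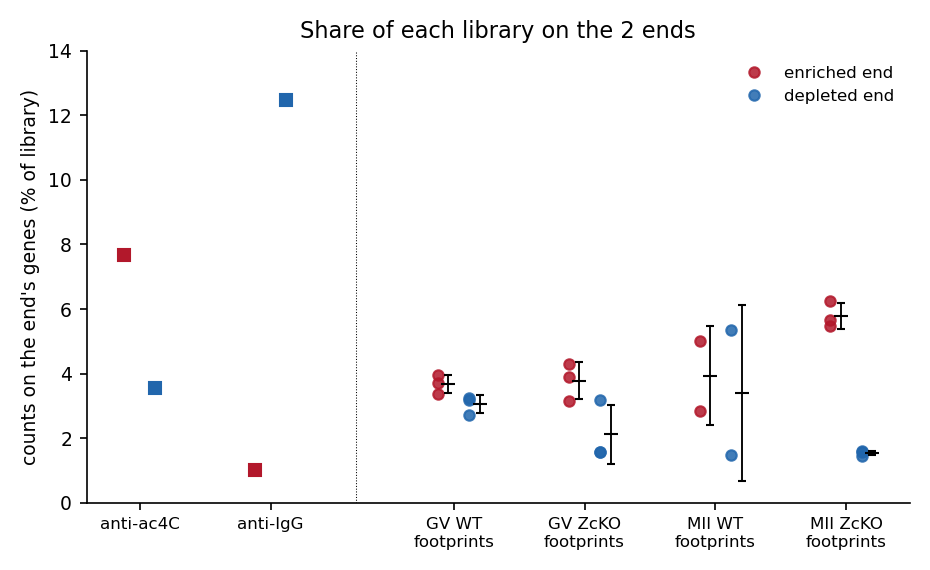
Percent of the counts on genes that fell on the enriched end (red) and the depleted end (blue) in the 2 pull-downs (squares, 1 library each) and in the 11 footprint libraries (points, with black bars for mean and SD per group). The pull-down shares follow from how the ends were chosen; in WT GV footprints the enriched end took 3.38% to 3.95% and the depleted end 2.73% to 3.24%.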

How the data were processed

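The authors deposited 1 table of raw read counts per gene for each library, made per the labels with cutadapt, STAR and HTSeq on mm10 (versions and the annotation release are not given in the sources used here), with 5 summary rows that were left out of the totals. Strand handling and removal of PCR duplicates are not stated for the pull-downs, and duplicates would make the bounds too narrow. Counts were scaled to CPM by the total on genes, and each ratio received exact 95% Clopper-Pearson bounds (scipy 1.17.1, Python 3.11.15). Gene identifiers without their version were matched to GENCODE M21 on GRCm38 (21856 of 21898). Length is the union of annotated exons unless stated. With 1 library per group no test was run. TMM factors came from edgeR 4.0.16. Named genes were the 15 leading genes of each end, the 3 highest and lowest called members of each list, the acRIP-PCR genes, Nat10, the genes nearest each bound, the 10 most counted genes per library and the markers. Any other gene was named after its values were seen. The members and lists were chosen with earlier results of these data known. Some items are not reported here.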

Additional observations from a re-analysis of the deposited data

How the results depend on the processing

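No paired analysis was possible because each pull-down has 1 library and their ratio comes from no test. For the same reason no replicate could be left out. The 439 enriched and 218 depleted genes became 1030 and 59 with totals that include fragments on no feature, where the median ratio was 1.97. Dividing all counts by 2, as if each molecule had been read 2 times, left 77 enriched and 131 depleted genes. Dividing them by 4, an alternative chosen after the data were seen, left 4 and 66, with median lengths 4.39 times apart. The 99% bounds left 188 enriched genes. A looser bound of 1.5 and its inverse gave 820 and 448, and the ratio itself past 2 or 0.5 gave 1533 and 627. Minimums of 100 and 200 counts gave 269 and 99 enriched and 106 and 45 depleted genes. With no minimum there were 743 depleted genes and a median ratio of 2.51, and a minimum of 20 gave 392 depleted genes. Without genes whose exons overlap another gene, also added later, 277 and 132 remained. TMM, median-of-ratios scaling and totals without mitochondrially encoded genes kept both counts within 1.5 times. Enriched genes were the longer in each of the 10 alternatives for length, by 1.62 to 2.08 times apart from the division by 4. With totals that include fragments on no feature, the ratios of Btg4 (1.03), Rdx (1.30), Bpgm (1.02) and Dppa3 (1.05) moved from below to above 1. Depth limits the enriched end, where 241 genes have an anti-IgG count of 0.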
